A study of Sus scrofa with 12 samples.

Results

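Vesicle trafficking genes were followed in porcine blastocysts of parthenogenetic and in vivo origin. They were chosen by the start of the gene symbol of a probe: RAB, SEC, ARF or STX with a number, VPS, SNX, VAMP, or COP with A, B, E, G or Z. The rule itself uses no measured value, but the members were chosen with earlier results of these data known. By this rule 177 of the 24908 probes on the array were taken, which stand for 114 of the 7772 genes named on it. Of these, 76 genes had 1 probe and 38 had several, up to 6 probes for RAB10.

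Pools of 5 embryos of 4 kinds were compared, with 3 pools of each. Parthenogenetic (PA) embryos came from oocytes that were activated with ionomycin and 6-DMAP and cultured in vitro, and they carry no paternal genome. In vivo (IVV) embryos were flushed from gilts. They differ from PA embryos in fertilization, in oocyte maturation (in vitro for PA) and in culture, and HB also in the labelled collection time. These factors cannot be told apart. Of each origin, hatched blastocysts (HB), which have left the zona pellucida, and expanded blastocysts (XB), which are still inside it, were collected. The labels give 5.5 days after insemination for IVV HB, and 5 days (replicates 1 and 2) or 6 days (replicate 3) for IVV XB. For PA HB they give 7, and for PA XB 5 (replicate 1) or 6 (replicates 2 and 3), in a unit of hours after fertilization, which parthenotes do not undergo. Every value below is a log2 ratio of the pool's amplified RNA (Cy5) over a reference RNA of several embryo stages (Cy3). Pools are named by origin, stage and replicate number, as in IVV-HB1. Such a ratio compares 1 probe between arrays and gives no level of 1 gene against another. In whole embryos, fewer cells of a type and less RNA per cell cannot be told apart.

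Membrane proteins and secreted proteins enter the endoplasmic reticulum (ER) through the Sec61 channel and leave it in vesicles with a COPII coat. COPI vesicles carry material back to the ER and within the Golgi, and Rab and Arf GTPases mark each membrane and recruit its coats, tethers and motors. SNARE proteins of the VAMP and STX (syntaxin) families fuse the vesicle with its target. Taken-up material passes through early endosomes, from which it is recycled, retrieved by retromer and sorting nexins, or carried on to lysosomes with the help of ESCRT and of the HOPS tether. In blastocysts these routes serve the polarized trophectoderm, which moves fluid into the blastocoel and takes up material from the uterine lumen. Members were divided by textbook role into a secretory group (78 probes of 45 genes), an endosomal group (81 probes of 58 genes) and 18 probes of 11 genes that belong to neither.

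The arrays differed in spread but little in centre. Array medians lay between -0.095 and -0.016, and the median absolute deviation of all probes was 0.603 to 0.726 on PA arrays and 0.388 to 0.475 on IVV arrays. This wider spread of PA arrays moves with origin in every comparison of PA with IVV below, and its part in them was not tested other than by the scaled and quantile-normalized values given. Of the marker lists, 8 of 9 trophectoderm genes were measured. KRT8 was higher (log2 fold change 1.23) and KRT18 lower (-1.72) in PA HB than in IVV HB. KRT8, GATA2 and TFAP2C were higher in PA XB than in IVV XB. In HB, KRT8 and KRT18 were each called on a single probe, as was TFAP2C in XB. The other KRT8 (4230) and KRT18 (10395) probes had overlapping groups in HB and were not called. The other TFAP2C probe (9872) read 0.53, 0.86 and 0.61 in PA XB pools, against 0.96, 1.54 and 1.64 in IVV XB pools. It was lower, but not called. By QPCR, the study reported both KRT8 and KRT18 lower in PA HB. It also reported KRT18 lower by array, and GATA2 lower in PA HB by array and by QPCR. Here GATA2 was not called in HB. It read 1.94, 2.02 and 2.20 in PA HB pools, against 1.13, 2.39 and 1.86 in IVV HB pools. GATA6 of the primitive endoderm list (3 of 5 genes measured) was higher in PA embryos at both stages (2.06 in HB and 2.23 in XB). The other measured genes of this list, PDGFRA and FOXA2, were not called at either stage. In HB, FOXA2 pointed down and PDGFRA up. None of the measured genes of the inner cell mass (2 of 6), cumulus (5 of 7), blood (1 of 6) or endometrial (2 of 6) lists was called in PA HB or PA XB against IVV embryos, and no gene of the sperm list was measured. Summed up by its median, the inner cell mass list lay between -0.37 and 0.21 on PA HB arrays and between 0.41 and 0.59 on IVV HB arrays. At the expanded stage it overlapped, with 0.255 to 0.31 on PA XB arrays and 0.23 to 0.61 on IVV XB arrays. This list held only 3 probes of 2 genes. The part of these cell types in the results was not tested, and a ratio to the reference does not show whether a marker is present.

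Before the members are described by role, 4 probes have to be set apart. The probes of RAB34 (22747), RAB6B (20640), RAB39B (32625) and VPS26B (43895) carry 4 of the highest ratios among members, and they had nearly the same value as each other on every array. Any 2 of them differed by at most 0.75 on any of the 12 arrays. Their mean was 2.78, 3.71 and 3.62 in the 3 PA HB pools, against 0.37, 2.44 and 1.08 in the IVV HB pools, and 1.86, 3.87 and 3.31 in the PA XB pools, against 0.61, 0.22 and 0.89 in the IVV XB pools. IVV-HB2 stood far above the other IVV arrays in all 4. Over the whole array, 264 other probes, or 268 with these 4 (1.08% of 24908), stayed within 0.6 of that mean on all 12 arrays, and they belong to genes as different as the transcription factor PPARD, the kinase STK16 and the keratinocyte protein LOR. RAB34 has a second probe (26538), and it did not share the course: it lay between -0.56 and 0.10 on all arrays, with a fold change of -0.09 between PA HB and IVV HB (adjusted p = 0.812). The 4 probes were singled out after their values were seen. Whether each reports its own transcript was not tested, and counts are given below with and without them. The limit of 0.6 finds only probes at the same level, and a like course at another level was not searched for. For example, SNX7 (5550) and VPS39 (26747) also had IVV-HB2 as their highest IVV array (-0.13 and 1.01). Both remain in the counts without the 4 probes.

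**Figure D1:**
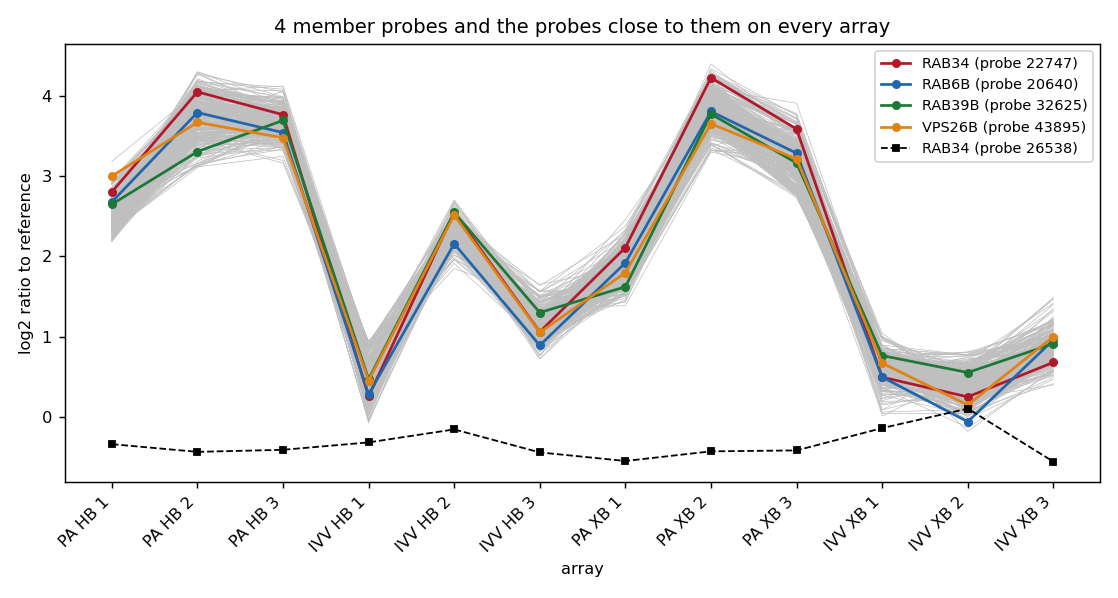
Log2 ratio to the reference (vertical axis) on the 12 arrays (horizontal axis) for the 4 member probes of RAB34, RAB6B, RAB39B and VPS26B (coloured lines), the 264 other probes within 0.6 of their mean on every array (grey lines) and the second RAB34 probe (dashed black line). The coloured lines run together through all arrays, highest on PA arrays and on IVV-HB2, while the second RAB34 probe stays between -0.56 and 0.10.

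Between PA HB and IVV HB, 10 member probes were up-regulated, 10 were down-regulated and 157 were not called. A probe was called where its adjusted p in limma did not exceed 0.05 and its change was 2-fold or more. The called probes make 11.3% of the members, and 8.50% of all probes on the array were called by the same rule (4.87% up and 3.63% down). Without the 4 probes of the shared course, 6 members were up and 10 down. All 4 were called up, here and in XB, so leaving them out could only lower the counts up. The shares over all probes, here and below, still hold the 264 other probes of that course. The median log2 fold change of the members was -0.10, beside 0.02 over all probes. All 3 PA HB arrays lay on 1 side of all 3 IVV HB arrays for 65 members (36.7%), against 30.0% of all probes. At an unadjusted p under 0.05 there were 57 members. With no limit on the fold, 13 were up and 18 down, and 12.7% of all probes passed. These calls rest on few arrays. Of the 20, 18 were lost without IVV-HB1, 5 without IVV-HB2, 14 without IVV-HB3, 4 without PA-HB1, 15 without PA-HB2 and 12 without PA-HB3. With arrays scaled to the same spread, 5 members were up and 5 down, and with quantile normalization 2 were up and 3 down. Calls over all probes moved as well. The 1213 up and 905 down became 302 and 347 without IVV-HB1, and 509 and 467 without PA-HB2. They were 1187 and 685 with arrays scaled and 445 and 587 with quantile normalization, but rose without IVV-HB2 (1432 and 1029) or PA-HB1 (1587 and 1071). Only the calls of VAMP5 and RAB14 held in every alternative that was run for them.

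The same comparison between PA XB and IVV XB gave more calls. Here 12 member probes were up-regulated, 17 were down-regulated and 148 were not called, which is 16.4% of members called beside 12.6% of all probes (7.04% up and 5.51% down). Without the 4 probes, 8 members were up and 17 down. The median over the members was -0.06, beside 0.03 over all probes, and the 2 groups of arrays did not overlap for 77 members (43.5%), against 37.2% of all probes. With no limit on the fold, 19 members were up and 25 down, and 19.5% of all probes passed. Of the 29 calls, 9 were lost without IVV-XB1, 10 without IVV-XB2, 2 without PA-XB1, 9 without PA-XB2 and 6 without PA-XB3, and none without IVV-XB3. The balance of directions depended on the scaling: 14 members were up and 8 down with arrays scaled to the same spread, and 12 were up and 12 down with quantile normalization. Over all probes, the 1754 up and 1372 down became 1935 and 1092 with arrays scaled, and 1275 and 1351 with quantile normalization. Without IVV-XB2 they were 1200 and 920. The calls of RAB34, RAB6B, SNX7, SNX18, STX17 and SEC61G held in every alternative that was run for them.

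The 2 comparisons of origin use different arrays. Of the members called up, 7 were called at both stages (70.0% of the HB calls and 58.3% of the XB calls), and of those called down, 6 were (60.0% and 35.3%). In all, 36 probes of 32 genes were called at 1 or both stages, and all 36 had the same sign at both. The wider spread of PA arrays enters both comparisons. Agreement between the stages was not counted over all probes, so it is not shown to be particular to the members.

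**Figure D2:**
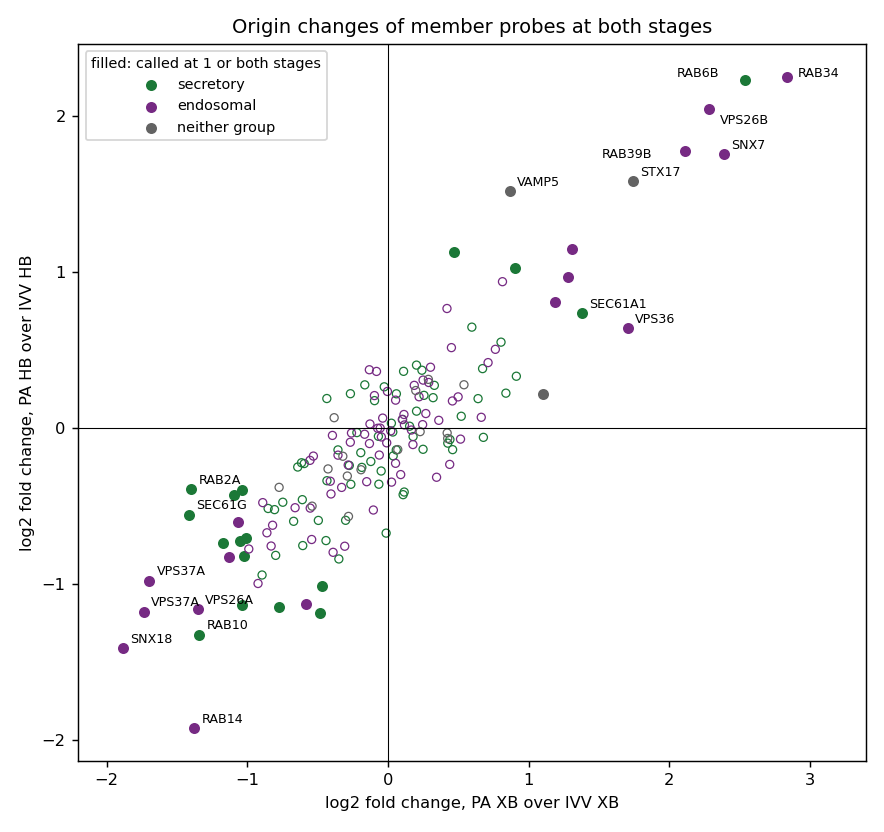
Log2 fold change between PA HB and IVV HB (vertical axis) against that between PA XB and IVV XB (horizontal axis) for the 177 member probes, coloured by group, with probes called at 1 or both stages filled. The 36 filled points lie at the upper right or the lower left, with RAB34, RAB6B, VPS26B, RAB39B, SNX7 and STX17 at the upper end and RAB14, SNX18 and VPS37A at the lower end.

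Entry into the ER was the secretory step with the highest share of calls at the expanded stage. Of its 8 probes, 1 rose and 3 fell in PA XB in comparison with IVV XB, beside 12.6% of all probes called. Of these 4 calls, 2 were opposite calls of 1 gene, SEC61A1. None of the 8 was called in PA HB, where their median was -0.44. SEC61G, a small subunit of the Sec61 channel (probe 30971), read -0.75, -1.14 and -0.45 in PA XB pools, against 0.72, 0.80 and 0.38 in IVV XB pools. All PA XB pools were below all IVV XB pools, and the log2 fold change was -1.41 (SE 0.25, adjusted p = 0.00218 in limma). SEC62, which helps proteins into the ER after their synthesis, also fell in PA XB (probe 42238, -1.09, SE 0.22, adjusted p = 0.00495), a change that was under the 2-fold limit without IVV-XB1 (-0.97) or PA-XB1 (-0.96) and not called with arrays scaled (-0.44).

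SEC61A1, the pore-forming subunit of the same channel, was called in both directions. Its probe 1382 read 0.72, 0.79 and 0.86 in PA XB pools, against -0.81, -0.67 and -0.28 in IVV XB pools (1.38, SE 0.22, adjusted p = 0.00116). Its probe 42376 read -0.73, -1.12 and -0.71 in PA XB pools, against 0.30, 0.30 and 0.35 in IVV XB pools (-1.17, SE 0.22, adjusted p = 0.00315). Neither pair of groups overlapped, and the probes moved apart in PA HB as well, with 0.74 for probe 1382 and -0.73 for probe 42376, both short of 2-fold. Thus no direction can be given for the gene, and the mean of its probes was 0.10 higher in PA XB (adjusted p = 0.748).

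Of the COPII coat, which buds cargo vesicles from the ER, 0 of 11 probes were called in PA HB and 2 fell in PA XB. SEC23B, a subunit of the inner layer of the coat (probe 38699), read -0.81, -2.41 and -1.47 in PA XB pools, against -0.48, -0.51 and -0.68 in IVV XB pools. The groups did not overlap and PA-XB2 was the lowest, with a fold change of -1.01 (SE 0.30, adjusted p = 0.0311). The call was lost without IVV-XB1, IVV-XB2, PA-XB2 or PA-XB3 (adjusted p 0.0613 to 0.115), and the change was -0.58 without PA-XB2. It was also lost with either scaling of the arrays (-0.58 scaled and -0.91 after quantile normalization). Its paralog SEC23A (probe 897) read 0.13, -0.04 and -0.57 in PA XB pools, against -0.89, -1.30 and -0.31 in IVV XB pools, which overlap, and was not called (0.68, SE 0.33, adjusted p = 0.168). SEC23IP, a partner of SEC23 at the sites where COPII vesicles form (probe 44509), was the other probe that fell (-1.05, SE 0.27, adjusted p = 0.0148). It was not called without IVV-XB1, IVV-XB2 or PA-XB2 (adjusted p 0.0518 to 0.0717), nor with either scaling of the arrays (-0.51 scaled and -0.95 after quantile normalization).

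The COPI coat changed in PA HB through 1 gene. COPB1, the beta subunit of coatomer, had 3 probes, and 2 of them fell. Probe 34814 read -2.51, -3.04 and -1.73 in PA HB pools, against -0.89, -1.29 and -1.55 in IVV HB pools (-1.18, SE 0.33, adjusted p = 0.0327). Probe 36798 read -1.65, -0.95 and -0.68 in PA HB pools, against -0.08, -0.05 and -0.13 in IVV HB pools (-1.01, SE 0.24, adjusted p = 0.0181). All PA HB pools lay below all IVV HB pools on both probes, and also on the third probe (33573), which was short of 2-fold (-0.94, SE 0.26, adjusted p = 0.0300). The call of probe 34814 was lost without IVV-HB1, IVV-HB2, IVV-HB3, PA-HB1 or PA-HB2 (adjusted p 0.0547 to 0.153), that of probe 36798 without IVV-HB1, IVV-HB2, IVV-HB3 or PA-HB1, and both with either scaling of the arrays (-0.40 and -0.77 scaled). In PA XB the 3 probes had fold changes of -0.48, -0.47 and -0.89, and none was called.

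COPB2, the other large beta-type subunit of the coat, had 4 probes, with fold changes of 0.06 to 0.65 between PA HB and IVV HB, and none was called. The highest of them (probe 11726) read 0.94, 0.95 and 0.65 in PA HB pools, against 0.18, 0.23 and 0.19 in IVV HB pools, so that its groups did not overlap and its adjusted p was 0.0317, but the change was under 2-fold. Over the 14 COPI probes the median was -0.02 in HB and 0.15 in XB.

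Among the GTPases of the ER and the Golgi, RAB2A, which acts between these membranes, fell in PA XB. Its probe 22033 read -1.32, -1.41 and -1.86 in PA XB pools, against -0.17, 0.24 and -0.47 in IVV XB pools (-1.40, SE 0.22, adjusted p = 0.00129). The groups were far apart at the expanded stage but not at the hatched stage, where PA HB pools read -1.61, -1.51 and -1.36 and IVV HB pools -1.16, -0.86 and -1.29 (-0.39, SE 0.22, adjusted p = 0.288). The other 2 RAB2A probes read -0.59 and -0.43 between PA XB and IVV XB and were not called. RAB6B, a Golgi Rab, is one of the 4 probes of the shared course. It read 2.68, 3.79 and 3.54 in PA HB pools, against 0.28, 2.16 and 0.89 in IVV HB pools (2.23, SE 0.51, adjusted p = 0.0151), and was higher in PA XB as well (2.54, SE 0.51, adjusted p = 0.00472). The HB call was lost without IVV-HB1, IVV-HB3 or PA-HB2 (adjusted p 0.0554 to 0.0850) and with either scaling (1.38 scaled and 1.18 after quantile normalization).

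ARF4, a GTPase of the early Golgi, had 5 probes, of which 1 (21319) fell in PA XB (-1.03, SE 0.28, adjusted p = 0.0192). The other 4 lay between -0.35 and 0.32 in that comparison, and 1 of these (896) has an accession that RefSeq lists under ARF2. The call of probe 21319 was lost without IVV-XB1, IVV-XB2, PA-XB2 or PA-XB3 (adjusted p 0.0610 to 0.102), and its change was -0.11 with arrays scaled.

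The exocytic Rabs and their regulators held 25 probes of 12 genes, of which 2 rose and 3 fell in PA HB and 3 fell in PA XB. RAB10, which directs vesicles to the plasma membrane of epithelia, had 2 falling probes among 6. Probe 30200 read -1.44, -1.53 and -1.80 in PA HB pools, against -0.01, -0.67 and -0.12 in IVV HB pools (-1.32, SE 0.35, adjusted p = 0.0266), and probe 27223 gave -1.13 (SE 0.28, adjusted p = 0.0191). In PA XB they gave -1.34 and -1.03, and both were called. The other 4 RAB10 probes lay between -0.41 and 0.21 in HB and between -0.19 and 0.26 in XB, so the fall was seen on a minority of the gene's probes. Both HB calls were lost without IVV-HB1, IVV-HB3, PA-HB2 or PA-HB3 (adjusted p up to 0.122). In XB, both were lost without IVV-XB1, IVV-XB2 or PA-XB2, and that of probe 27223 also without PA-XB3 (adjusted p up to 0.0901). With either scaling of the arrays, the RAB10 calls of both stages were lost.

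RAB13, which delivers proteins to tight junctions, fell in PA HB on probe 38153 (-1.15, SE 0.30, adjusted p = 0.0258), where PA HB pools read -0.35, -0.35 and -0.61 and IVV HB pools 1.48, 0.05 and 0.60. The spread of the IVV HB pools was wide, and the change was -0.76 without IVV-HB1 (adjusted p = 0.122). The call was also lost without IVV-HB3, PA-HB2 or PA-HB3 and after quantile normalization (adjusted p = 0.0785). The second RAB13 probe (27346) had overlapping groups in HB (-0.67, SE 0.39, adjusted p = 0.296). RAB8B, another exocytic Rab, fell in PA XB on 1 of its 2 probes (42711, -1.04, SE 0.29, adjusted p = 0.0243), a call lost without IVV-XB1, IVV-XB2, PA-XB2 or PA-XB3 (adjusted p 0.0707 to 0.0878) and with either scaling (-0.60 scaled and -0.89 after quantile normalization).

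In the other direction, RAB27A, which docks secretory granules at the plasma membrane, rose in PA HB on probe 32541. This probe read -2.78, -3.03 and -1.93 in PA HB pools, against -4.07, -3.79 and -3.26 in IVV HB pools (1.13, SE 0.32, adjusted p = 0.0365), with all pools far below the reference. The remaining 3 RAB27A probes lay between -0.05 and 0.28 in HB. The call was lost without IVV-HB1, IVV-HB2 or PA-HB3 (adjusted p 0.0801 to 0.169) and after quantile normalization (0.70, adjusted p = 0.179), while the change was 2.54 with arrays scaled. RAB3IP (Rabin8), which activates RAB8, rose on 1 of 4 probes in PA HB (16504, 1.03, SE 0.26, adjusted p = 0.0211). That call was lost without IVV-HB1, IVV-HB3, PA-HB2 or PA-HB3 (adjusted p 0.0615 to 0.109). None of the 5 probes of exocytic SNAREs and none of the 3 of ER to Golgi SNAREs was called at either stage.

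**Figure D3:**
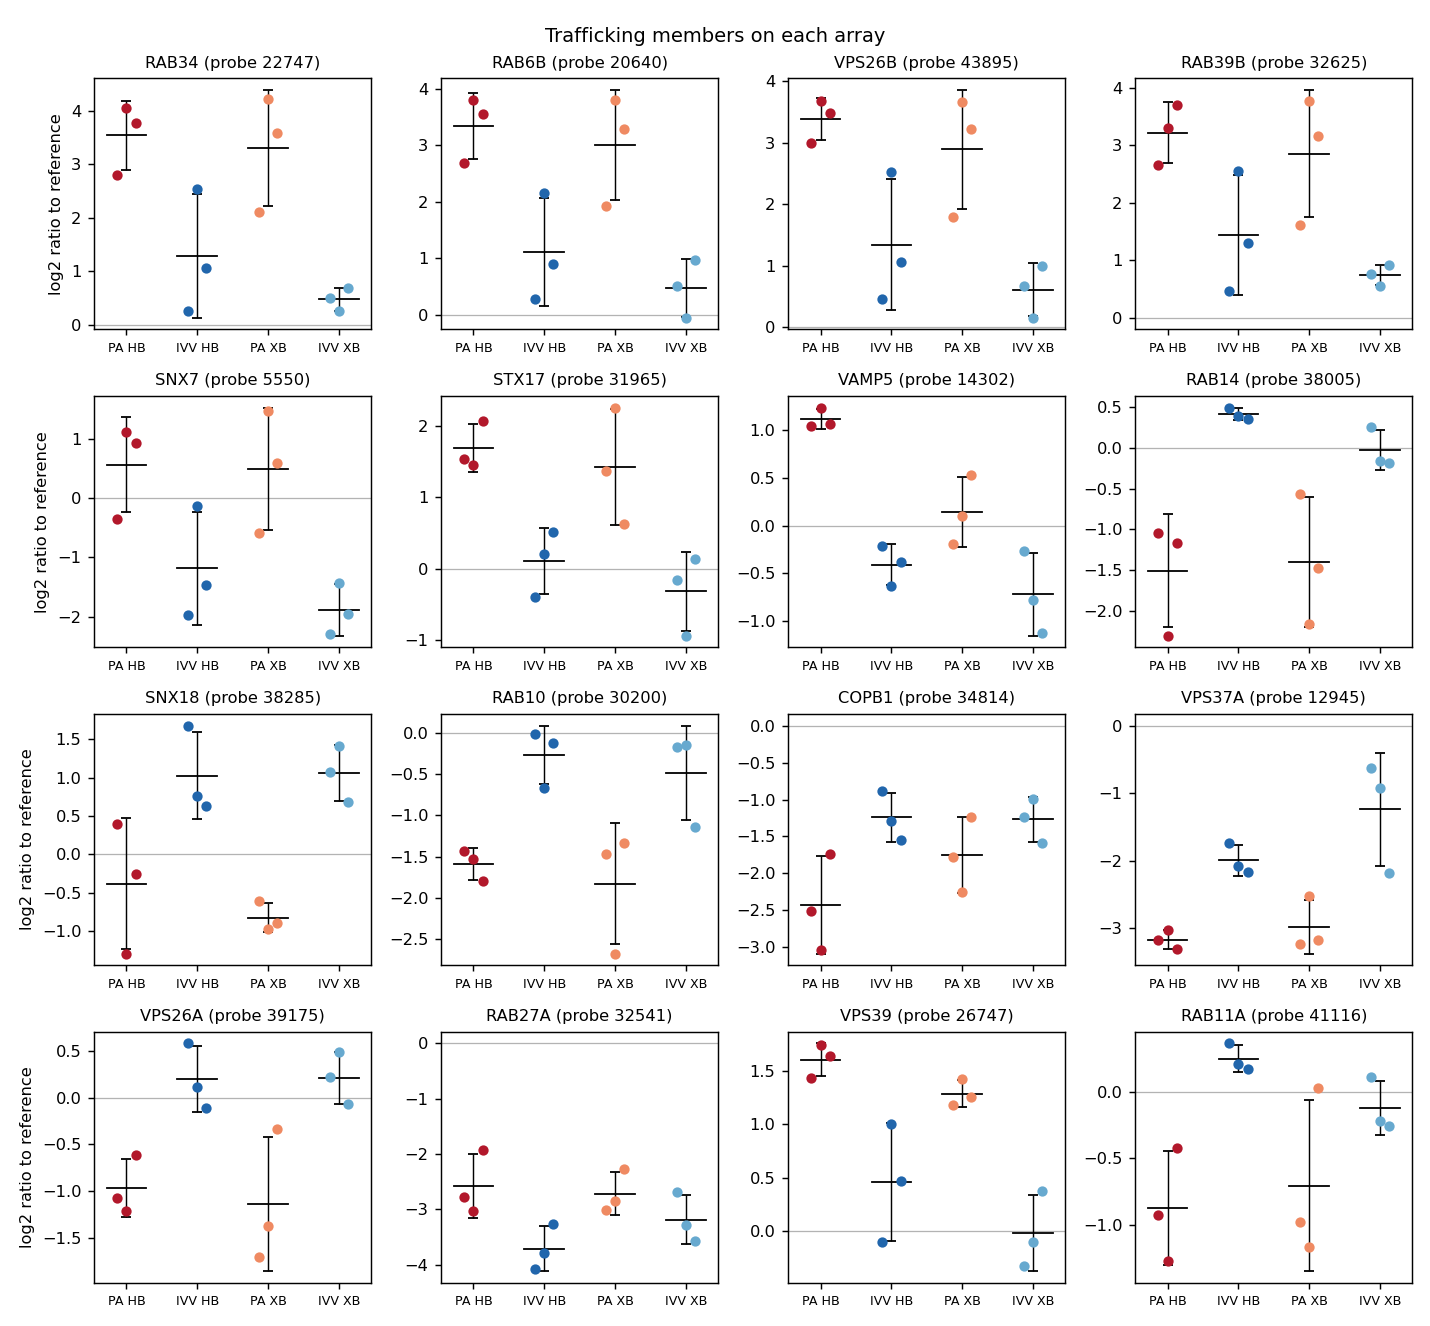
Log2 ratio to the reference (vertical axis) of 16 member probes in the 3 pools of PA HB, IVV HB, PA XB and IVV XB (points, horizontal axis), with the group mean (long line) and SD (error bar, n = 3). VAMP5 and RAB14 show groups that lie apart in HB, tight for VAMP5 and wide in PA HB for RAB14, while SNX7 shows PA HB and IVV HB pools that overlap. RAB34, RAB6B, VPS26B and RAB39B, in the top row, have 1 IVV HB pool above 2 in each panel.

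On the endosomal side, the Rabs of recycling endosomes fell in PA HB on 2 of 13 probes. RAB14, which acts between the Golgi and endosomes, was the 1 fall in HB whose call held in every alternative that was run. Its probe 38005 read -1.05, -2.31 and -1.17 in PA HB pools, against 0.50, 0.39 and 0.35 in IVV HB pools. Every PA HB pool was more than 1 unit below every IVV HB pool, and the log2 fold change was -1.92 (SE 0.37, adjusted p = 0.00686). It stayed between -2.15 and -1.52 with any of the 6 arrays left out, and was -1.70 with arrays scaled and -1.92 after quantile normalization, called each time. In PA XB it fell too (-1.38, SE 0.37, adjusted p = 0.0192), although this call was lost without IVV-XB1, IVV-XB2, PA-XB2 or PA-XB3 (adjusted p 0.0538 to 0.0910). The second RAB14 probe (20205) did not follow, with -0.30 in HB and 0.09 in XB.

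RAB11A, the defining Rab of recycling endosomes, fell in PA HB on probe 41116, which read -0.92, -1.27 and -0.42 in PA HB pools, against 0.37, 0.21 and 0.17 in IVV HB pools (-1.12, SE 0.29, adjusted p = 0.0251). The groups did not overlap, but the call was lost without IVV-HB1, IVV-HB3 or PA-HB2 (adjusted p 0.0633 to 0.108). It was not called in XB (-0.58), and its second probe (26650) gave 0.09 in HB. Of the early endosome Rabs, RAB21, which carries integrins inward, fell in PA XB on its single probe (16406, -1.07, SE 0.23, adjusted p = 0.00571). PA XB pools read -1.49, -1.23 and -1.11, against -0.25, -0.23 and -0.15 in IVV XB pools. The change was under 2-fold without PA-XB1 (-0.96) and with either scaling of the arrays (-0.79 scaled and -0.89 after quantile normalization).

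The calls among late endosome and lysosome Rabs, 2 of 6 probes at each stage, are both probes of the shared course. RAB34, a Rab of lysosome positioning and cilia, read 2.80, 4.05 and 3.77 in PA HB pools, against 0.26, 2.55 and 1.06 in IVV HB pools (2.25, SE 0.56, adjusted p = 0.0210). RAB39B, mutated in an X-linked intellectual disability in humans, read 2.65, 3.31 and 3.70 in PA HB pools, against 0.47, 2.55 and 1.30 in IVV HB pools (1.78, SE 0.53, adjusted p = 0.0424). In both, the highest IVV HB pool came close to the lowest PA HB pool. In PA XB they gave 2.83 and 2.11. Both HB calls were lost without IVV-HB1, IVV-HB3, PA-HB2 or PA-HB3 (adjusted p up to 0.115 for RAB34 and 0.206 for RAB39B) and with either scaling. The XB call of RAB39B was lost without IVV-XB2 or PA-XB2 (adjusted p up to 0.0665) and with either scaling. No other late Rab, such as RAB7A or RAB9A, was called.

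Retromer retrieves receptors from endosomes, and 3 of its 4 probes were called in PA XB. VPS26A, one of the alternative VPS26 subunits (probe 39175), read -1.07, -1.21 and -0.62 in PA HB pools, against 0.58, 0.12 and -0.11 in IVV HB pools. It was lower in every PA HB pool (-1.16, SE 0.32, adjusted p = 0.0310), and in PA XB as well (-1.35, SE 0.32, adjusted p = 0.00994). The HB call was lost without IVV-HB1, IVV-HB2, IVV-HB3, PA-HB1 or PA-HB2 (adjusted p 0.0513 to 0.152) and after quantile normalization (adjusted p = 0.0763), and the XB call without IVV-XB2 (adjusted p = 0.0528).

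Its paralog VPS26B (probe 43895) moved in the opposite direction, but belongs to the shared course. It read 3.00, 3.67 and 3.48 in PA HB pools, against 0.45, 2.52 and 1.05 in IVV HB pools (2.04, SE 0.50, adjusted p = 0.0201), and 1.80, 3.65 and 3.22 in PA XB pools, against 0.67, 0.15 and 1.00 in IVV XB pools (2.28, SE 0.50, adjusted p = 0.00712). The HB call was lost without IVV-HB1, IVV-HB3, PA-HB2 or PA-HB3 (adjusted p 0.0585 to 0.110) and with either scaling, and the XB call with quantile normalization (1.20, adjusted p = 0.0964). VPS29, another retromer subunit, fell in PA XB on 1 of 2 probes (18233, -1.13, SE 0.18, adjusted p = 0.00149) and gave -0.82 in HB (adjusted p = 0.0128, short of 2-fold). Its XB change was under 2-fold after either scaling (-0.88 scaled and -0.98 after quantile normalization), and its second probe (31848) gave -0.39.

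Of the 22 probes of sorting nexins, which bind endosomal membranes, 1 rose and 1 fell in PA HB, and 2 rose and 1 fell in PA XB. SNX18, which remodels membranes in endocytosis and autophagy (probe 38285), read 0.40, -1.29 and -0.25 in PA HB pools, against 1.68, 0.77 and 0.64 in IVV HB pools (-1.41, SE 0.38, adjusted p = 0.0279). At the expanded stage PA XB pools read -0.60, -0.97 and -0.90, against 1.08, 1.42 and 0.69 in IVV XB pools (-1.88, SE 0.38, adjusted p = 0.00446). The groups did not overlap at either stage, and the gap was wider at the expanded stage. The XB call held with any array left out, while the HB call was lost without IVV-HB1, PA-HB2 or PA-HB3 (adjusted p 0.0593 to 0.147) and after quantile normalization (adjusted p = 0.0613).

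SNX7, a nexin with a membrane-bending domain (probe 5550), read -0.59, 1.48 and 0.59 in PA XB pools, against -2.29, -1.43 and -1.95 in IVV XB pools. All PA XB pools were above all IVV XB pools (2.39, SE 0.54, adjusted p = 0.00840). In HB its groups overlapped, with -0.34, 1.12 and 0.94 in PA HB pools, against -1.97, -0.13 and -1.46 in IVV HB pools, and the call was at the limit (1.76, SE 0.54, adjusted p = 0.0496). It was lost there without IVV-HB1, IVV-HB3, PA-HB2 or PA-HB3 (adjusted p 0.138 to 0.221) and after quantile normalization. The second SNX7 probe (20446) gave -0.31 in HB and 0.35 in XB. SNX25, a nexin with a domain that binds G proteins, rose in PA XB on 1 of 2 probes (35234, 1.28, SE 0.41, adjusted p = 0.0441), a call lost without IVV-XB2 (0.76), PA-XB2 or PA-XB3 (adjusted p up to 0.204). Its other probe (23631) gave -0.55.

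The HOPS tether docks late endosomes to lysosomes, and its subunits VPS39 and VPS41 gave the 2 rising probes of 11 in PA XB. The VPS39 probe 26747 read 1.44, 1.74 and 1.64 in PA HB pools, against -0.11, 1.01 and 0.47 in IVV HB pools (1.15, SE 0.26, adjusted p = 0.0143), and was 1.31 higher in PA XB (SE 0.26, adjusted p = 0.00451). The groups did not overlap at either stage. The other 2 VPS39 probes pointed down, at -0.76 and -0.51 in HB, and the mean of the 3 was -0.039 (adjusted p = 0.916). The HB call was lost without IVV-HB1 or PA-HB2 (adjusted p 0.0597 to 0.0777) and with either scaling. For VPS41, probe 8383 rose in PA XB (1.19, SE 0.27, adjusted p = 0.00840) while its other 2 probes gave 0.22 and -0.83.

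ESCRT sorts ubiquitinated cargo into the lumen of endosomes. VPS37A of ESCRT-I fell on both of its probes in PA XB. Probe 12945 read -3.23, -2.52 and -3.18 in PA XB pools, against -0.62, -0.92 and -2.19 in IVV XB pools (-1.73, SE 0.33, adjusted p = 0.00371), and probe 38627 gave -1.70 (SE 0.31, adjusted p = 0.00250). It was the 1 gene of 38 with several probes whose probes were all called the same way in PA XB. In PA HB probe 12945 read -3.17, -3.03 and -3.31, against -1.73, -2.08 and -2.16 in IVV HB (-1.18, SE 0.33, adjusted p = 0.0356), and probe 38627 missed the limits (-0.98, SE 0.31, adjusted p = 0.0511). All groups were below the reference, and the PA pools were lowest. The HB call was lost with any 1 of the 6 arrays left out (adjusted p 0.0587 to 0.154), and scaling of the arrays took the change of probe 12945 to -0.11 in HB and -0.95 in XB, and that of probe 38627 to -0.98 in XB, none of them called.

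VPS36 of ESCRT-II rose in PA XB on 1 of 3 probes (32316), which read 1.28, 1.48 and 1.85 in PA XB pools, against -0.28, -0.70 and 0.47 in IVV XB pools (1.71, SE 0.29, adjusted p = 0.00191). The groups were apart in XB and close in HB (0.64, SE 0.29, adjusted p = 0.176). The other 2 VPS36 probes gave 0.25 and -0.17 in XB. None of the 3 probes of the GARP tether and none of the 6 of endosomal and trans-Golgi SNAREs was called at either stage.

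Among the members of neither group, VAMP5 gave the lowest adjusted p of all members in HB. VAMP5 is a VAMP family protein known from muscle membranes in mice and was measured with 1 probe (14302). It read 1.04, 1.23 and 1.06 in PA HB pools, against -0.21, -0.63 and -0.39 in IVV HB pools. The PA HB pools agreed closely and lay above all 9 other arrays. The log2 fold change was 1.52 (SE 0.24, adjusted p = 0.00268) and stayed between 1.41 and 1.62 with any of the 6 arrays left out. At the expanded stage PA XB pools read -0.20, 0.10 and 0.53, against -0.26, -0.78 and -1.12 in IVV XB pools (0.86, SE 0.24, adjusted p = 0.0233), which is under 2-fold. The difference between the stages in the effect of origin was 0.66 (SE 0.34, adjusted p = 0.999), so a difference between stages is not shown.

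STX17, the syntaxin that fuses autophagosomes with lysosomes (probe 31965), rose at both stages. It read 1.54, 1.46 and 2.07 in PA HB pools, against -0.39, 0.20 and 0.52 in IVV HB pools (1.58, SE 0.39, adjusted p = 0.0191), and 1.37, 2.26 and 0.63 in PA XB pools, against -0.16, -0.94 and 0.14 in IVV XB pools (1.74, SE 0.39, adjusted p = 0.00731). No groups overlapped. The HB call was lost without IVV-HB1 or PA-HB3 (adjusted p 0.0686 to 0.105) and just missed the limit with either scaling (adjusted p 0.0530 scaled and 0.0695 after quantile normalization). RAB24, a Rab linked to autophagy, rose in PA XB on 1 of 3 probes (2259, 1.10, SE 0.26, adjusted p = 0.00997), and was under 2-fold without IVV-XB1 (0.98) and with arrays scaled (0.98). The other 2 RAB24 probes gave 0.42 and -0.77.

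**Figure D4:**
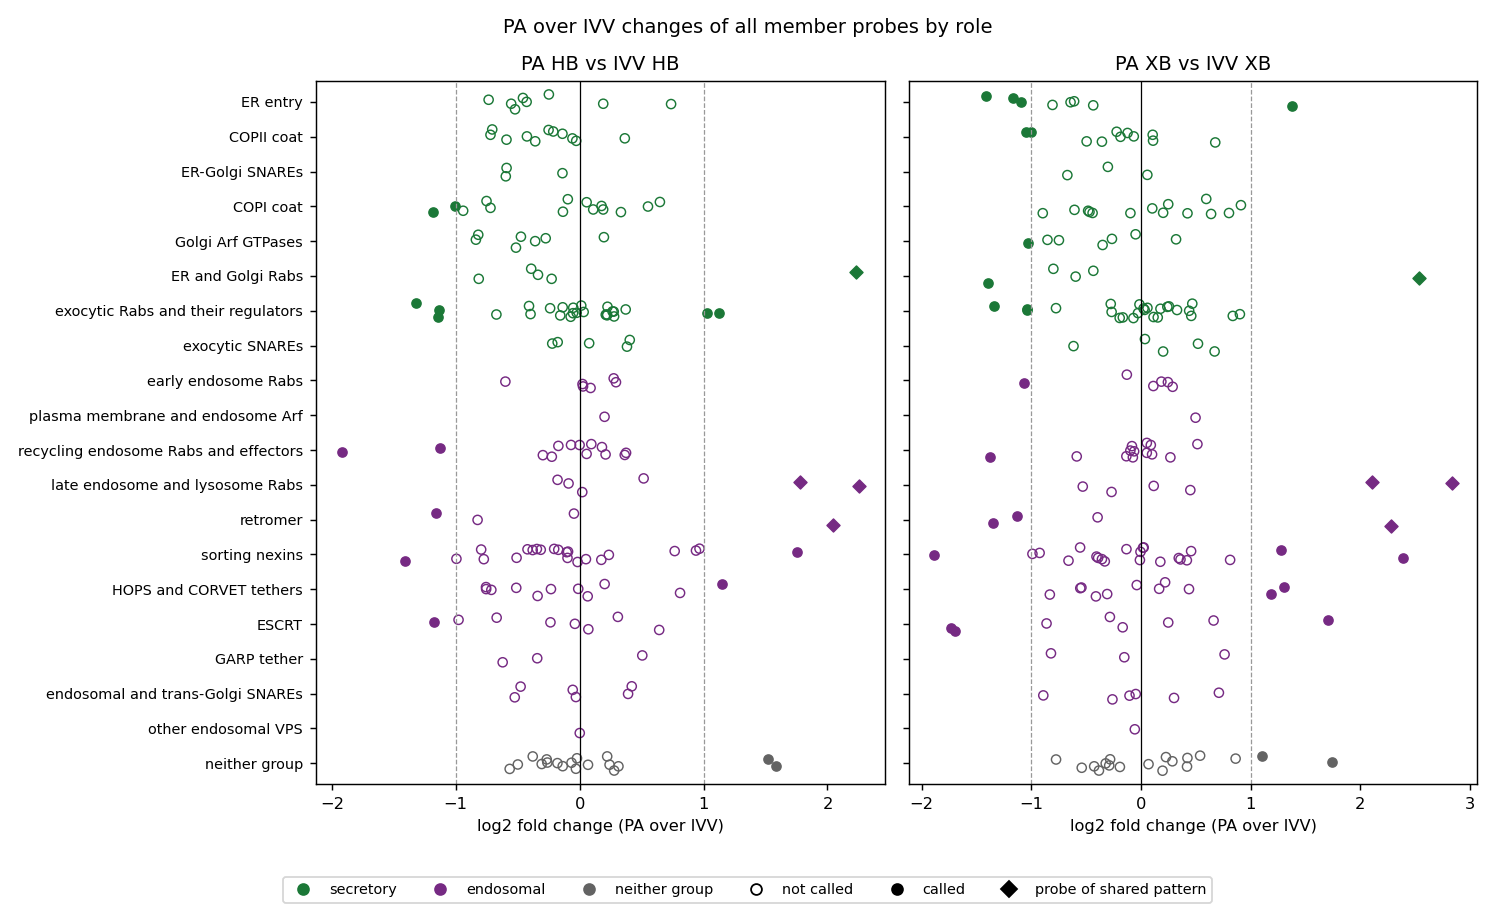
Log2 fold change of PA over IVV (horizontal axis) for each of the 177 member probes in HB (left) and XB (right), by role (rows), with called probes filled, a change of 2-fold dashed and the 4 probes of the shared course as diamonds. ER entry has 4 filled points of 8 in XB and none in HB, and exocytic, early endosome and trans-Golgi rows lie mostly inside the dashed lines.

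The secretory and endosomal groups were then set side by side. In PA HB, 3 secretory probes were up and 5 down of 78 (10.3% called), and 5 endosomal probes were up and 5 down of 81 (12.3%). The median fold change was -0.17 for secretory and -0.05 for endosomal probes, a difference of -0.12. In PA XB, 2 secretory probes were up and 10 down (15.4%), and 8 endosomal probes were up and 7 down (18.5%), with medians of -0.11 and -0.05. Over all probes, 8.50% were called in HB (4.87% up and 3.63% down), with a median of 0.02. In XB, 12.6% of all probes were called (7.04% up and 5.51% down), with a median of 0.03. Without the 4 probes, the calls in HB were 2 up and 5 down for both groups (9.09% of secretory and 8.97% of endosomal probes), and those in XB were 1 up and 10 down for secretory probes and 5 up and 7 down for endosomal probes. With arrays scaled, however, the secretory calls in XB were 4 up and 3 down and the endosomal ones 9 up and 4 down, and with quantile normalization they were 4 up and 5 down and 6 up and 6 down. Without IVV-XB1 the secretory calls were 3 up and 3 down.

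Within each array, the endosomal median was subtracted from the secretory one, which leaves out any shift that all probes share. The difference stood at -0.09 ± 0.15 for PA HB and -0.06 ± 0.10 for IVV HB, and at -0.11 ± 0.12 for PA XB and -0.02 ± 0.02 for IVV XB (mean and SD, n = 3 each). In HB the groups differed by less than the SD of either. In XB they differed by less than the SD of PA XB but by more than that of IVV XB. The XB pools overlapped, with -0.24, -0.014 and -0.086 in PA XB, against -0.014, -0.044 and -0.0045 in IVV XB. The secretory median itself had a mean of -0.29 ± 0.12 over PA HB pools, against -0.09 ± 0.08 over IVV HB pools, and the endosomal one -0.20 ± 0.11 over PA HB pools, against -0.03 ± 0.04 over IVV HB pools. No difference of secretory from endosomal genes beyond the spread between pools was therefore seen in HB. With arrays scaled the difference of the medians in HB was 0.01 in place of -0.12. For XB, where the pools overlapped, a difference is not shown either. There the difference of the medians was -0.09 with arrays scaled, in place of -0.06.

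How far the probes of a gene agree limits what can be said of genes rather than probes. Of the 38 genes with several probes, 11 had a called probe in PA HB, and in 0 of them were all probes called the same way. In 7 of the 11 the probes had both signs. In PA XB 15 genes had a called probe, of which VPS37A had all of them called the same way, SEC61A1 had calls in both directions, and 10 had probes of both signs. The median distance between the highest and the lowest probe of a gene was 0.61 in HB and 0.75 in XB. Which part of each transcript a probe covers was not examined.

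**Figure D5:**
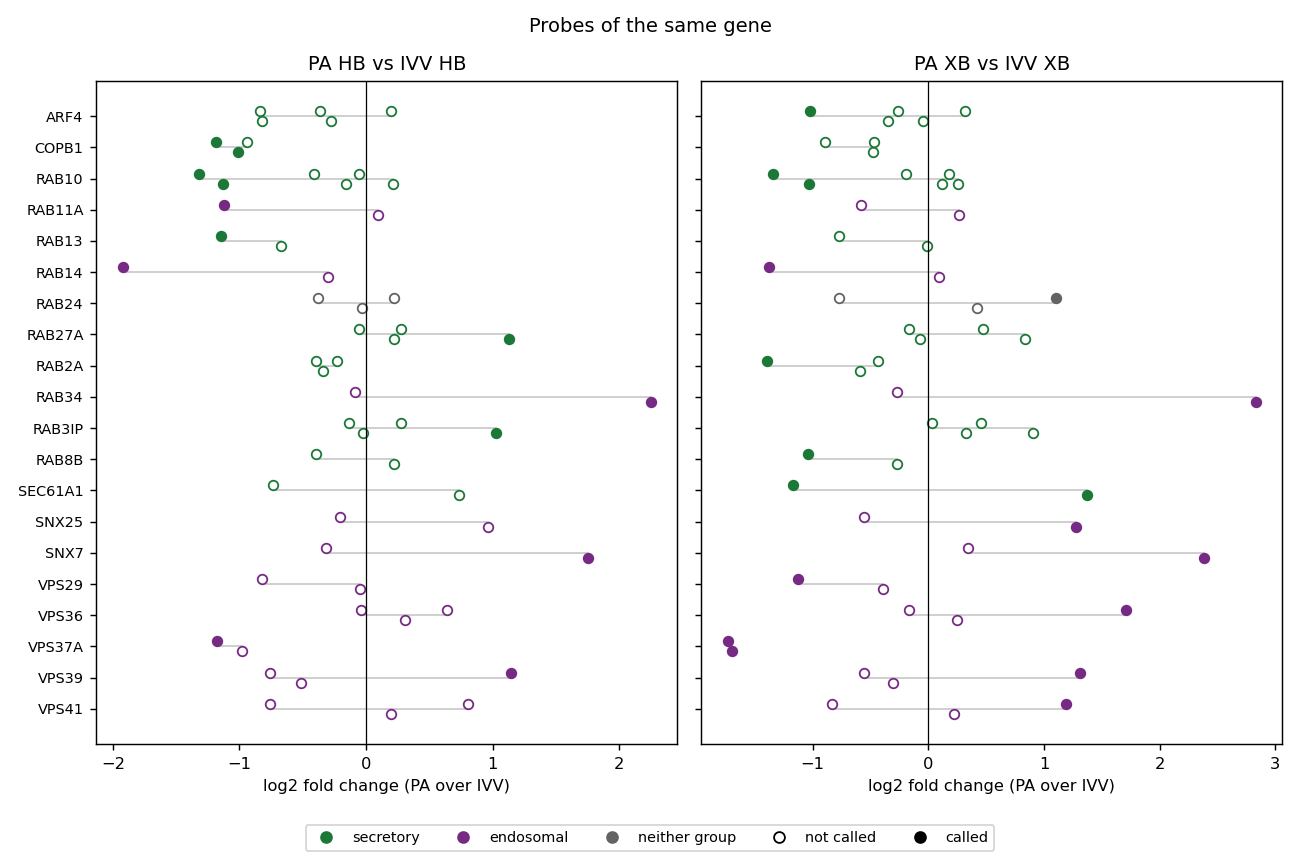
Log2 fold change of PA over IVV (horizontal axis) of every probe of the 20 genes with several probes and a call at 1 or both stages (rows), in HB (left) and XB (right), with called probes filled. The VPS37A probes lie together at both stages, while those of SEC61A1 lie on opposite sides of 0, with calls in both directions in XB.

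Hatching itself gave no call among members. In IVV HB in comparison with IVV XB, 0 members were called in limma, beside 0.149% of all probes, and 9 had an unadjusted p under 0.05. The lowest adjusted p was 0.155, for RAB2A, with -0.97 (SE 0.22), and VPS36 had the largest change upward (1.08, SE 0.29, adjusted p = 0.261). Without IVV-XB3, the pool collected at 6 days, VPS36 was called up (1.40, adjusted p = 0.0268) and RAB2A (-1.14, adjusted p = 0.0374) and VPS37A (-1.22, adjusted p = 0.0354) were called down, and array weights gave the calls of VPS36 and RAB2A. Calls over all probes rose under the same alternatives. The 16 up and 21 down became 55 and 216 without IVV-XB3, and 166 and 173 with array weights.

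In PA HB in comparison with PA XB, 0 members were called in limma, beside 0.00803% of all probes, and 11 had an unadjusted p under 0.05. This fit did not pair the pools by replicate number. SNX3, which brings cargo to retromer (probe 26631), and VAMP5 had the lowest adjusted p. SNX3 read 0.05, 0.46 and 0.37 in PA HB pools, against -0.38, -0.71 and -0.60 in PA XB pools (0.86, SE 0.22, adjusted p = 0.358), and 0.28, 0.64 and 0.25 in IVV HB pools, against -0.52, -0.04 and -0.74 in IVV XB pools (0.82, SE 0.22, adjusted p = 0.234). All hatched pools were above all expanded pools of their origin, although neither change passed the test. The hatching change of PA embryos minus that of IVV embryos was called for 0 members in limma, beside 0.00803% of all probes, with 5 at an unadjusted p under 0.05. Its lowest adjusted p was 0.896, for RAB2A, whose difference was 1.01 (SE 0.31).

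Genes that work with the members but lie outside the naming rule were counted from 4 lists, with a gene called when at least 1 of its probes was. By that rule 5.76% of the 7772 named genes rose and 5.06% fell in PA HB, and 8.79% rose and 7.41% fell in PA XB. Of 9 measured ESCRT partners, 0 rose and 3 fell in PA HB: CHMP2B (-1.14), CHMP4A (-1.17) and CHMP6 (-1.99), subunits of the ESCRT-III filament. In PA XB 0 rose and 2 fell, CHMP4A (-1.27) and CHMP4B (-1.73). The second CHMP6 probe did not fall (0.15 in HB). The median over the 13 probes of the list was -0.17 in HB and -0.37 in XB. Of 35 coat and adaptor partners, 2 rose and 1 fell in PA HB and 3 rose and 3 fell in PA XB. SAR1A, the GTPase that starts COPII assembly, fell at both stages on 1 of 2 probes (-1.33 in HB and -1.54 in XB), and its other probe gave -0.63 and 0.37, neither called. ARCN1, a coatomer subunit, was higher on 1 of 2 probes (2.22 and 2.69), while the second gave 0.05 in HB and 0.04 in XB. The rising ARCN1 probe stayed within 0.6 of the shared course on all arrays but 1, where it was 0.62 away. The other rises, TMED9 at both stages and ERGIC1 in XB, were probes of the shared course.

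Of 20 SNARE partners and fusion factors, 1 rose and 0 fell in PA HB, and 3 rose and 2 fell in PA XB. The rise in HB was that of GOSR1, a Golgi SNARE whose probe belongs to the shared course. GOSR1 was the third rise in XB as well, beside the SNAREs YKT6 (1.09, on 1 of 2 probes) and USE1 (1.12). The falls in XB were those of SCFD1 (-1.13, on 1 of 3 probes), which helps SNAREs to assemble, and EXOC2 (-1.20, on 1 of 3 probes). Of 41 regulators of Rab and Arf proteins, 3 rose and 2 fell in PA HB, and 8 rose and 6 fell in PA XB. The rises of TBC1D20 and TRAPPC6B, at both stages, were on probes of the shared course, and without these 1 gene rose in HB and 6 in XB. EEA1, a tether of early endosomes, fell on 2 of 7 probes at both stages (-1.27 and -1.23 in HB, -1.20 and -1.38 in XB), and TRAPPC3, a subunit of the TRAPP complex, fell (-1.50 in HB and -1.09 in XB) while TRAPPC5 of the same complex rose (2.08 in HB and 1.13 in XB). GDI2, which takes Rab proteins off membranes, rose in PA XB on 3 probes (1.36, 1.24 and 1.11). No gene of these lists was called in either hatching comparison.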

How the data were processed

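RNA of 12 pools was measured on the EMPV1 porcine embryo array. According to the study's methods, the authors subtracted background and applied within-array loess in FlexArray, and deposited log2 ratios of sample (Cy5) over reference (Cy3), with no normalization between arrays stated. That the values are log2 ratios in this direction was settled from the dyes and from differences of group means. Intensities were not used here, so dim probes were not filtered, and the number of arrays limits the precision.

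The values of 24908 probes (0 missing) were used as deposited. A symbol was given for 10735 probes and none for 14173. Of 44 member probes with an accession, 24 were found in RefSeq, 23 under the same symbol. With limma 3.58.1 in R 4.3.3, 1 mean for each group was estimated from the 12 arrays together, and p-values were adjusted by Benjamini-Hochberg across the whole table. Calls took an adjusted p up to 0.05 together with a 2-fold change. The pools were called biological replicates, 3 per group. Members, roles, marker lists and partner lists were chosen with earlier results of these data known. Member genes called in any comparison are named, while only some called genes of the partner lists are. Array values are given for up to 12 genes with the largest HB changes whose groups do not overlap, up to 8 in each other comparison, and paired coat and retromer subunits. Those of other called genes and of SNX3 were added after their values were seen.

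Replicate numbers are shared by the groups. The deviations of same-numbered PA HB and PA XB arrays from their group means correlated at 0.45, 0.32 and 0.22, so these numbers were taken to pair the samples. The main fit did not use this pairing, which entered only the alternatives with a replicate block. The other comparisons gave -0.15 to 0.23. The fit was checked on simulated data. Alternatives were scaling of arrays, quantile normalization, a replicate block, array weights, robust moderation, the compared groups alone, the more variable 50% of probes, the mean of a gene's probes, no limit on the fold, and each array left out in turn. Plots were made in Python 3.11.15 (matplotlib 3.10.9).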

Additional observations from a re-analysis of the deposited data

How the results depend on the processing

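In PA HB against IVV HB, the 10 up-regulated members became 5 with arrays scaled, 2 with quantile normalization and 6 without the 4 probes of the shared course, an alternative added after seeing the data. With 1 array left out they ranged from 1 to 11. The 10 down-regulated members became 5 with arrays scaled, 3 with quantile normalization and 18 with no limit on the fold, and ranged from 1 to 7 with 1 array left out. In PA XB against IVV XB, the 12 up-regulated members became 19 with no limit on the fold (10 to 14 with 1 array left out), and the 17 down-regulated ones 8 with arrays scaled (9 to 20). By the mean of a gene's probes, 6 genes were up and 5 down in HB, in place of 10 and 8, and 6 were up and 8 down in XB, in place of 12 and 15. Array weights gave 1 up and 1 down between IVV HB and IVV XB, and leaving out 1 array 0 to 1 up and 0 to 2 down.

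The mean of probes turned the direction of VPS39 probe 26747 in HB (-0.039) and of SEC61A1 probe 42376 in XB (0.10), because the genes' other probes moved the other way. Of the 20 HB calls 2, and of the 29 XB calls 6, were kept under every alternative. The cause of the other changes was not tested. Calls over all probes also moved under these alternatives, as given above. The replicate block gave 10 up and 10 down in HB and 12 up and 17 down in XB. It gave 0 in each hatching comparison, also with the block in the PA arrays alone, so the pairing changed no call of a member. Over all probes, the 2 up and 0 down between PA HB and PA XB became 4 and 4 with the block. With the block in the PA arrays alone they were 13 and 11. The secretory minus endosomal median ranged from -0.19 to 0.01 in HB and from -0.33 to -0.02 in XB, lowest at both stages over the more variable 50% of probes. Signal over background was not available to the fits, so a dim probe cannot be told from a bright one.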
